A study of Mus musculus with 6 samples.

Results

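The genes described here are 36 mouse genes that sense amino acid or endoplasmic reticulum stress, carry that signal through the transcription factors ATF4 and CHOP, or make and import amino acids. They were taken by symbol from the 38087 gene IDs of the count files, as a list of names drawn up with earlier results of these data known. All 36 were found, and 35 had enough counts to be tested. Of the 36, 17 sense, carry or put out the stress signal (called stress genes below) and 19 are enzymes and transporters of amino acids (called supply genes below). The counts come from HL-1, an immortalized line that grew from mouse atrial muscle cells and keeps both dividing and contractile properties. All samples are of this line. One group of 3 libraries came from cells given a control siRNA, described as scrambled, and the other group of 3 from cells given 100 nM of an siRNA against Circ-INSR, a circular RNA from the insulin receptor gene. No time after transfection is given. The labels do not say whether the 3 libraries of a group came from separate cultures, so each p-value rests on the spread among these 6 libraries, and that spread may be a technical one. Fewer cells of a type and less RNA per cell cannot be told apart in such bulk samples.

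A family of kinases, each answering to its own kind of stress, phosphorylates the translation factor eIF2. General protein synthesis then slows, while translation of the Atf4 mRNA rises because of short reading frames ahead of its coding sequence. ATF4 protein pairs with C/EBP factors and induces genes for making and importing amino acids, and it also induces CHOP, encoded by Ddit3, which takes part in the later and more damaging phase of the response. In heart muscle the response is known from mitochondrial disease and from faulty protein folding. Since Atf4 is controlled largely at translation, its mRNA level is not a measure of ATF4 protein, which these libraries do not show.

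After Circ-INSR siRNA most stress genes were lower and most supply genes were slightly higher, while the Atf4 mRNA itself was not called different. The hormone gene Fgf21 fell to 0.236 of its control level, the glutathione-degrading enzyme gene Chac1 to 0.496, the growth regulator gene Ddit4 to 0.557 and Ddit3 to 0.565. In contrast, the amino acid transporter gene Slc7a5 rose 1.400-fold, Shmt2 and Asns rose 1.29-fold and 1.27-fold, and no supply gene was called lower, although other scalings or filters and 1 left-out library called Mthfd1l or Got1 so, as given beside those genes. Among the 17 stress genes, 10 fell, 4 rose and 3 were not called. Of the 18 supply genes tested, 12 rose and 6 were not called, and 9 rose when libraries were scaled to total counts. A gene was called where the adjusted p of edgeR's quasi-likelihood test, with Benjamini-Hochberg adjustment over all genes tested, was under 0.05. By this rule 28.5% of all 16666 genes tested were higher and 28.5% were lower, so that change was common. The balance of directions moved with the scaling, with 4130 genes higher and 5326 lower under total counts and 5597 higher and 4696 lower with a trend of length and GC content removed. The stress genes were called lower in 58.8% of cases and higher in 23.5%, and the supply genes were called higher in 66.7%. Since the genes were chosen with earlier results of these data known, the distance of these shares from 28.5% is no independent result. The median log2 fold change, Circ-INSR siRNA over control, was -0.25 over the stress genes and 0.16 over the supply genes. Over all genes it lay at -0.0045. Counted by groups that do not overlap, 16 of the 35 genes tested were higher in all treated libraries than in all controls and 14 were lower. Of all 16666 genes tested, 5336 were higher and 5209 lower in this way, which is 63.3% for both directions together. These counts are no independent result either.

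**Figure D1:**
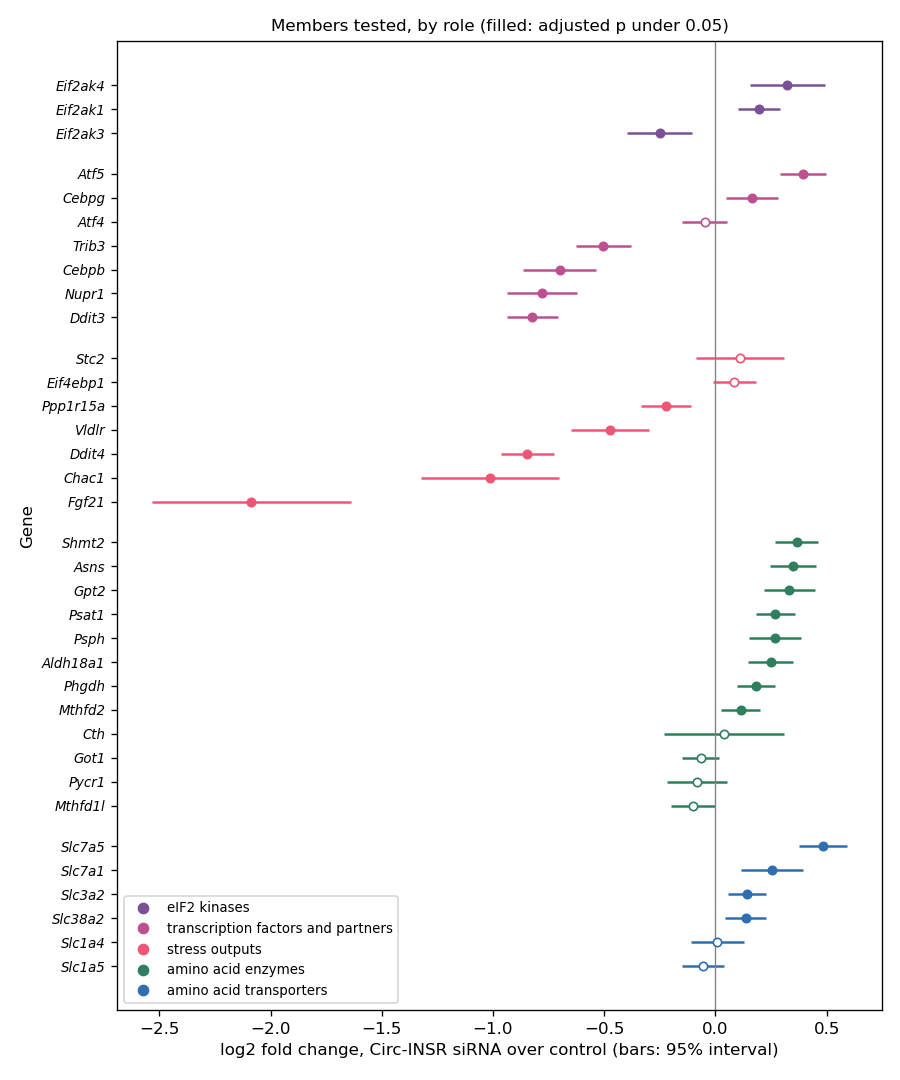
Log2 fold change of each tested gene (horizontal axis, Circ-INSR siRNA over control), grouped by role, with bars for the 95% interval of the fit and filled points for genes called at an adjusted p under 0.05. The stress outputs lie mostly left of 0, down to -2.09 for Fgf21, and the called enzymes and transporters lie right of 0, up to 0.49 for Slc7a5.

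Sizes are given for both sets of genes. Of the stress genes, 7 of 17 fell by at least 0.5 on the log2 scale, a size reached downward by 16.9% of all genes. None of the supply genes moved by 0.5 in either direction, against 28.5% of all genes. A second test asked for a log2 change beyond 0.3 rather than beyond 0 (edgeR's glmTreat, adjusted over all genes), by which 11.7% of genes were higher and 14.3% lower. By it 8 of the 10 falls among stress genes remained, all but Eif2ak3 and Ppp1r15a. Only Atf5 and Slc7a5 remained of the 16 genes that rose, with adjusted p-values of 0.0395 and 0.00183. The other 11 supply genes that rose, and 3 of the stress genes that rose, were not called beyond that size. Both sets are plotted against all genes in the histogram of log2 fold changes.

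**Figure D2:**
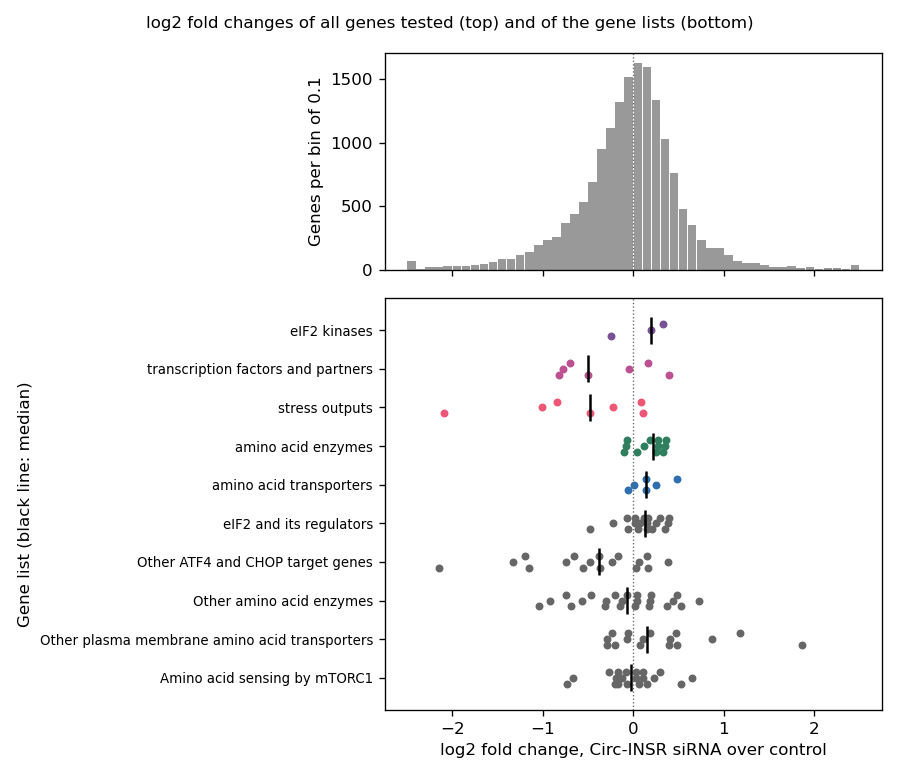
Upper panel: number of genes (vertical axis) by log2 fold change (horizontal axis, Circ-INSR siRNA over control) for all 16666 genes tested, with genes beyond the axis gathered in the outermost bins. Lower panel: the same measure for the genes of each list as points, with a line at the list's median, which is -0.50 for the factors, -0.47 for the stress outputs, 0.22 for the enzymes and 0.14 for the transporters.

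Total counts ran from 60024750 to 62523602 in the control libraries and from 68468620 to 77037474 after Circ-INSR siRNA. Control replicate 3 stood apart from the other control libraries. Set against them, its counts gave chi-square values of 31.5 and 21.9 a gene, while control replicates 1 and 2 gave 7.02 between each other. In it the longest 10% of genes sat at a median log2 deviation of -0.133, against 0.0301 and 0.0367 in the other controls, and it was the lowest control for 15 of the 35 genes tested. The circular RNA is not measured in libraries selected by poly(A) tail. Its host gene Insr read 104 to 129 CPM in the controls and 89.2 CPM in each of the 3 libraries after Circ-INSR siRNA, where CPM is the count scaled to a common library size, with TMM factors included. All 13 atrial muscle markers were above the count filter, with summed levels of 6999 to 7294 CPM in the controls and 6853 to 6965 CPM after Circ-INSR siRNA. Within these sums 5 markers rose and 6 fell, among them Myl4 (1.81-fold) and Myh6 (1.41-fold) upward and Tnnt2 (0.602 of control) and Actn2 (0.639 of control) downward. The atrial hormone gene Nppa made up little of that sum, at 16.6 ± 0.357 CPM in the controls (SD, n = 3). Markers of other cells of the heart moved with the groups. The summed level of the 5 fibroblast markers ran from 159.2 to 178.4 CPM in the controls and from 112.6 to 126.5 CPM after Circ-INSR siRNA, nearly all of it Col1a1, with Lum at or under 3 counts in every library. Col1a1 fell, while the far lower Col1a2 rose from 0.313 to 0.995 CPM (adjusted p = 0.000522), and Pdgfra was not called (0.3698 and 0.58 CPM). The 4 endothelial markers summed to 27.1 to 30.6 CPM and 82.54 to 86.3 CPM, most of it Kdr and the rest mainly Tek, which both rose, with Cdh5 at 0 in 3 libraries and no higher than 0.0637 CPM in the others. The 4 macrophage markers summed to 6.401 to 7.37 CPM and 3.645 to 4.146 CPM, with Adgre1 at 0 in every library and Ptprc no higher than 0.0637 CPM. The part of these markers in the results below was not tested.

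Several of these genes carry, close to a RefSeq start, the letters of the response element that ATF4 and C/EBP partners bind. Promoter windows from RefSeq (GRCm38.p6, the same assembly as mm10) ran from 250 bases before to 50 bases after each start, and 32 of the 36 genes had one. The motif TGATGNAA, or TTNCATCA when read on the other strand, was found for 10 of the 32, which are 5 of 16 stress genes and 5 of 16 supply genes. It was found for 4.51% of the 27025 genes with a window in the table, and in 3.97% of all windows of this length. Among the 11408 tested genes with a window the share was 2.73%. Many of the 36 genes are listed because they are known ATF4 targets, so the larger share is no independent result. The matches are shown because the groups that hold them went different ways. They fall in the promoters of 5 stress genes that fell (Chac1, Fgf21, Nupr1, Trib3 and Vldlr) and of 1 supply gene that rose (Asns). A further 3 supply genes with a match (Got1, Pycr1 and Slc1a4) were not called. Slc7a11, which holds 2 matches, could not be tested, and its windows are not printed. Each window below is 30 bases long, read 5′ to 3′ in the direction of its gene, with the match in capitals.
Fgf21: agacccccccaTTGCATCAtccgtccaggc
Chac1: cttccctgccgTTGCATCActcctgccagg
Nupr1: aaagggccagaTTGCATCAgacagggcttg
Trib3: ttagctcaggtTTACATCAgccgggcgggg
Vldlr: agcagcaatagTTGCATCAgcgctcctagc
Asns: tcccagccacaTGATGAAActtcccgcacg
Got1: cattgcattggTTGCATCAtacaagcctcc
Pycr1: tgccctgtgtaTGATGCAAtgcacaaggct
Slc1a4: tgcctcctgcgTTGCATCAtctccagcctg

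Distances are counted from the RefSeq start of the promoter window, which for some genes is not the outer end of the gene in GENCODE. In Fgf21 the window was chr7:45615611-45615640 on the minus strand, with the match starting 139 bases before that start. For Chac1 it was chr2:119351038-119351067 on the plus strand, 193 bases before, and for Nupr1 chr7:126625562-126625591 on the minus strand, 110 bases before. The Nupr1 window lies inside the gene as given in GENCODE, chr7:126623249-126630861. Trib3 had its match after the start, by 14 bases, at chr2:152344028-152344057 on the minus strand. For Vldlr, which had 2 promoter windows, the match stood 200 bases before a RefSeq start, at chr19:27216809-27216838 on the plus strand. This too lies inside the gene, which begins at 27216484 in GENCODE. The Asns window was chr6:7693214-7693243 on the minus strand, 23 bases before, and inside the GENCODE gene, which spans chr6:7675169-7693254. Got1 held its match at chr19:43524689-43524718, Pycr1 at chr11:120643833-120643862 and Slc1a4 at chr11:20332699-20332728, all on the minus strand and 102, 103 and 4 bases before the start. The same 8 letters TTGCATCA therefore stood in the windows of Fgf21, Chac1, Nupr1 and Vldlr, which fell, and of Got1 and Slc1a4, which were not called. Read on the other strand, as TGATGCAA, they stood in Pycr1, which was not called. Slc7a11, which was not tested, holds both forms. By direction, a match was found for 5 of the 10 genes that fell and had a window, 1 of the 15 that rose and 3 of the 6 that were not called. Across all genes tested that have a match, 30.5% of 311 were called higher and 27.7% lower, close to the 28.5% of all genes each way. A match is a description of the letters, and binding was not measured.

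The 3 listed kinases that start the response did not move as a group: 2 rose (66.7%) and 1 fell (33.3%), against 28.5% of all genes each way. Eif2ak2, a further kinase of this family, was counted with the eIF2 regulators below and was not called (log2 -0.06, adjusted p = 0.717). Its groups overlapped, with means of 96.5 CPM in the controls and 92.7 CPM after Circ-INSR siRNA. Eif2ak3 encodes PERK, which senses unfolded protein in the endoplasmic reticulum, and its mRNA was at 29.7, 30.7 and 25.6 CPM in control replicates 1 to 3 and at 23.95, 23.8 and 24.5 CPM after Circ-INSR siRNA. The groups did not overlap, though control replicate 3 lay close to the lower group, and Eif2ak3 fell by 0.25 on the log2 scale (SE 0.07, adjusted p = 0.00727, edgeR). Eif2ak4, which encodes GCN2, the sensor of uncharged tRNA and so of missing amino acids, read 18.7, 18.7 and 15.4 CPM in the controls and 22.5, 22.4 and 21.2 CPM after the siRNA. It rose 1.25-fold (log2 0.32, SE 0.08, adjusted p = 0.00329), and here too control replicate 3 was the lowest library. Eif2ak1, the heme-regulated kinase that also answers to mitochondrial stress, was higher in all 3 treated libraries than in any control and rose 1.14-fold, from 98.1 ± 2.76 to 112 ± 1.87 CPM (SD, n = 3, adjusted p = 0.00209). It shares 487 exonic bases with Aimp2 on the opposite strand, which rose as well (log2 0.23, adjusted p = 0.001576). Whether counting used strand is not given in the sources used here, so these counts may include reads of the neighbour.

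Of the 7 factors and their partners, 4 fell (57.1%), 2 rose (28.6%) and 1 was not called, against 28.5% of all genes each way. Atf4, on mouse chromosome 15, stood at 143, 142 and 153 CPM in the controls and at 141, 145 and 138 CPM after Circ-INSR siRNA. The groups overlapped, with a log2 difference of -0.05 (95% interval -0.15 to 0.05, adjusted p = 0.394). When a trend of fold change with gene length and GC content was removed, its difference turned to 0.10 with an adjusted p of 0.0452, so no direction is given for Atf4.

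Ddit3, encoding CHOP, is a C/EBP family member that pairs with and redirects other C/EBP proteins. It was at 32.4, 33.9 and 32.8 CPM in the controls and at 18.8, 18.04 and 19.2 CPM after Circ-INSR siRNA. The libraries of each group lay within a narrow band, with a wide gap between the bands, and Ddit3 fell by 0.82 on the log2 scale (SE 0.05, adjusted p = 1.25e-07). It shares 68 exonic bases on the opposite strand with Mars, a tRNA synthetase gene that rose (log2 0.45, adjusted p = 2.345e-06).

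Cebpb encodes a C/EBP factor that pairs with ATF4. Its level was 58.4, 58.4 and 69.1 CPM in the controls and 41.2, 35.6 and 37.7 CPM after the siRNA, a fall of 0.70 on the log2 scale (SE 0.07, adjusted p = 1.11e-05). Every treated library was below every control. It overlaps Tmem189 by 312 bases on the opposite strand, and that gene rose by 0.78 (log2, adjusted p = 8.408e-08), the opposite direction to Cebpb. Cebpg, the partner that has no activation domain of its own and dimerizes with ATF4, went from 84.4 ± 4.16 to 94.6 ± 5.09 CPM (SD, n = 3). This was called as a rise (log2 0.17, adjusted p = 0.0204), but treated replicate 3 at 88.7 CPM lay below control replicate 3 at 88.9 CPM. The call was lost without control replicate 1 (adjusted p = 0.0626), without control replicate 2 (0.0759), without treated replicate 1 (0.0869) and without treated replicate 2 (0.0835), and with scaling to total counts (0.0914).

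Nupr1, a small stress-induced chromatin protein, read 15.4, 15.8 and 14.8 CPM in the controls and 8.202, 9.07 and 9.53 CPM after the siRNA. It fell by 0.78 (log2, SE 0.07, adjusted p = 2.79e-06). Trib3 encodes a pseudokinase that CHOP and ATF4 induce and that in turn restrains ATF4 and binds AKT, the kinase downstream of the insulin receptor. Its level was 52.8, 52.7 and 53.8 CPM in the controls and 38.9, 39.3 and 34.2 CPM after Circ-INSR siRNA, a fall of 0.50 (log2, SE 0.06, adjusted p = 1.36e-05). Neither gene had overlapping groups, and both carry a match in the promoter windows printed above.

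Atf5 is a close relative of ATF4 that is also controlled at translation and takes part in the mitochondrial stress response. Levels of 78.9, 78.5 and 76.00 CPM in the controls stood against 108, 97.8 and 101 CPM after Circ-INSR siRNA. Atf5 rose 1.31-fold (log2 0.39, SE 0.05, adjusted p = 2.41e-05), the largest rise of the 17 stress genes.

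**Figure D3:**
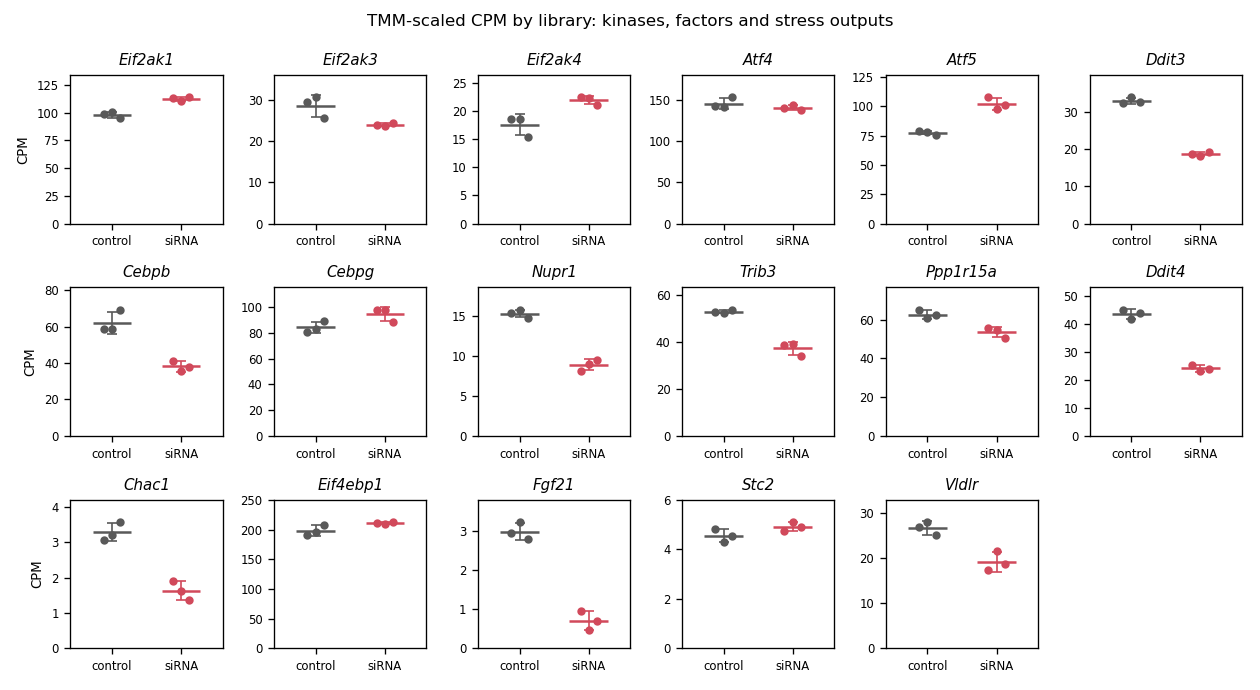
TMM-scaled CPM (vertical axes, linear from 0) of the stress genes in each library, 1 panel per gene, with control libraries and Circ-INSR siRNA libraries as points, the group mean as a long line and its SD as a bar (n = 3). The groups are apart for Ddit3 (32.4 to 33.9 against 18.04 to 19.2 CPM) and Fgf21 (2.79 to 3.22 against 0.474 to 0.951 CPM), and they overlap for Atf4, Cebpg and Stc2.

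Of the 7 outputs of the response, 5 fell (71.4%), 2 were not called and none rose, against 28.5% of all genes each way. Fgf21, a hormone that stressed muscle, heart and liver release, had the largest change of the 36 genes. It was at 2.94, 3.22 and 2.79 CPM in the controls and at 0.951, 0.474 and 0.696 CPM after the siRNA, which are 175 to 203 counts and 36 to 64 counts. Fgf21 fell by 2.09 on the log2 scale (SE 0.20, 95% interval -2.53 to -1.64, adjusted p = 4.23e-06), and only 1.13% of all genes tested moved as far or farther.

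Chac1 encodes an enzyme that breaks down glutathione and marks ATF4 and CHOP activity. Its 3.07, 3.201 and 3.57 CPM in the controls stood against 1.902, 1.62 and 1.36 CPM after the siRNA, from 98 to 224 counts a library. Chac1 fell by 1.01 on the log2 scale, with a standard error of 0.14 at this low depth (adjusted p = 7.67e-05). Ddit4 encodes REDD1, an inhibitor of mTORC1, the kinase complex that couples amino acid supply to growth. It went from 45.1, 41.8 and 43.9 CPM to 25.6, 23.2 and 24.1 CPM, with no overlap, and fell by 0.85 (log2, SE 0.05, adjusted p = 1.48e-07).

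Vldlr, a lipoprotein receptor that ATF4 induces under endoplasmic reticulum stress, was at 27.1, 27.99 and 25.1 CPM in the controls and at 17.3, 21.7 and 18.6 CPM after the siRNA. It fell by 0.47 (log2, SE 0.08, adjusted p = 0.000328), with all treated libraries below all controls. Ppp1r15a encodes GADD34, the phosphatase subunit that removes the phosphate from eIF2 and so ends the response, and it fell by 0.22, from 62.6 ± 2.24 to 53.6 ± 2.72 CPM (SD, n = 3, adjusted p = 0.00273). With the trend of length and GC content removed, the difference was -0.08 and not called (adjusted p = 0.119).

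The remaining outputs were not called. Eif4ebp1, an ATF4 target whose protein holds back cap-dependent translation, was at 191, 196 and 209 CPM in the controls and at 211, 209 and 213 CPM after the siRNA. All treated libraries lay above the controls by a small margin, with a log2 difference of 0.09 (95% interval -0.01 to 0.18, adjusted p = 0.123). Without control replicate 3 the difference was 0.13 with an adjusted p of 0.00453, and with the trend of length and GC content removed it was 0.12 with an adjusted p of 0.00436. Stc2, a secreted glycoprotein of the response, had overlapping groups at 4.56 ± 0.265 and 4.91 ± 0.176 CPM, and the 95% interval of its log2 difference was -0.09 to 0.31.

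Enzymes that make amino acids rose in 8 of 12 cases (66.7%, against 28.5% of all genes), and the other 4 were not called. In the serine pathway, which branches from glycolysis, all 3 steps rose. Phgdh, the first and committing enzyme, was at 251, 248 and 254 CPM in the controls and at 288, 283 and 284 CPM after Circ-INSR siRNA, a 1.13-fold rise (log2 0.18, SE 0.04, adjusted p = 0.00168). Psat1, the second step, was at 183, 187 and 191 CPM and then 226, 227 and 223 CPM, a 1.21-fold rise (log2 0.27, SE 0.04, adjusted p = 0.000127). Psph, the last step, rose as far, from 41.2 ± 2.44 to 49.6 ± 1.695 CPM (adjusted p = 0.00106). The groups did not overlap for any of the 3 genes. Psph shares 452 exonic bases with Cct6a on the opposite strand, which rose too (log2 0.31, adjusted p = 6.414e-05). The Phgdh rise was 0.33 rather than 0.18 on the log2 scale with the trend of length and GC content removed.

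Serine feeds folate metabolism in mitochondria, where 2 of 3 listed genes rose, to be read beside the 28.5% of all genes called higher. Neither of these 2 genes, Shmt2 and Mthfd2, was called beyond a log2 change of 0.3 (glmTreat, adjusted p = 0.0854 for Shmt2). Shmt2, which splits serine into glycine and a single-carbon unit, was at 141, 137 and 139.7 CPM in the controls and at 184, 181 and 172 CPM after the siRNA. With a 1.29-fold rise (log2 0.36, SE 0.04, adjusted p = 2.11e-05) it moved more than any other enzyme of the 36. The next enzyme, Mthfd2, went from 180.4 ± 1.17 to 195 ± 4.22 CPM, a 1.08-fold rise with an adjusted p of 0.0312. That call was lost in 4 of the 6 fits that left out 1 library: without control replicate 1 (adjusted p = 0.0503), control replicate 2 (0.0863), treated replicate 1 (0.117) and treated replicate 2 (0.108). It was also lost with upper-quartile scaling (log2 0.09, adjusted p = 0.0801) and with total counts (0.07, 0.191). Mthfd1l, which releases formate from the mitochondrion, was at 48.5, 48.6 and 46.7 CPM in the controls and at 44.3, 45.9 and 43.9 CPM after the siRNA, with no overlap. It was not called (log2 -0.10, adjusted p = 0.0728), and it was called lower without control replicate 3 (log2 -0.11, adjusted p = 0.0371), with upper-quartile scaling (-0.12, 0.0375), with scaling to total counts (-0.15, 0.0152) and after a filter of 1 CPM (-0.11, 0.0418).

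Among the other enzymes, Asns, which makes asparagine and is the textbook ATF4 target, was at 112, 119 and 119 CPM in the controls and at 151, 153 and 143 CPM after Circ-INSR siRNA. It rose 1.27-fold (log2 0.35, SE 0.05, adjusted p = 5.17e-05), with every treated library above every control. Of the genes with a promoter match printed above, it was the single one that rose.

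Gpt2, the mitochondrial alanine aminotransferase, was at 32.6, 33.3 and 30.6 CPM and then 42.1, 40.5 and 38.9 CPM, a 1.26-fold rise (log2 0.33, SE 0.05, adjusted p = 0.000199). Aldh18a1, which opens proline synthesis, rose 1.19-fold from 134 ± 4.35 to 159 ± 6.42 CPM (adjusted p = 0.000741). Pycr1, which closes it, was not called. Its groups stood at 16.5 ± 0.906 and 15.6 ± 0.339 CPM (95% interval of the log2 difference -0.22 to 0.05, adjusted p = 0.284). Got1, the cytosolic aspartate aminotransferase, was at 349.5 ± 5.75 and 334 ± 2.68 CPM (95% interval -0.15 to 0.02, adjusted p = 0.163), and scaling to total counts called it lower (log2 -0.11, adjusted p = 0.038). Cth, which makes cysteine from cystathionine, was low, at 2.94 ± 0.401 and 3.02 ± 0.143 CPM, and its 95% interval of -0.23 to 0.31 includes changes as large as the rise of 0.27 in Psat1.

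**Figure D4:**
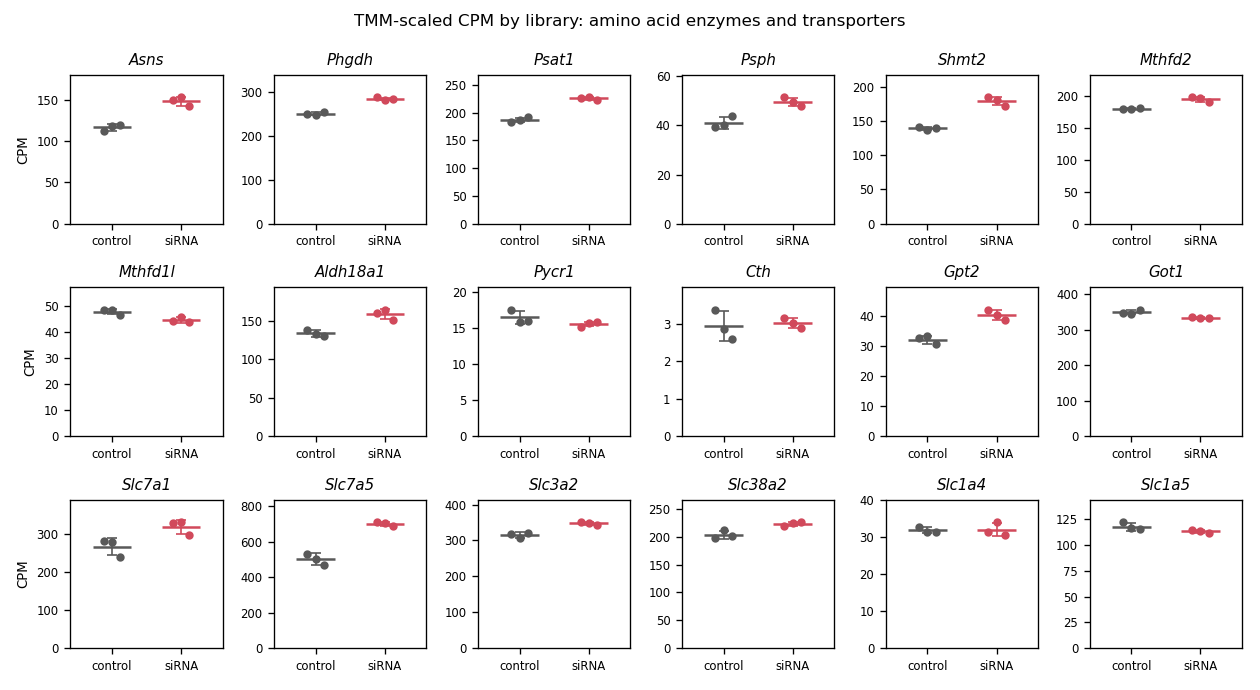
TMM-scaled CPM (vertical axes, linear from 0) of the enzyme and transporter genes in each library, 1 panel per gene, with control libraries and Circ-INSR siRNA libraries as points, the group mean as a long line and its SD as a bar (n = 3). Slc7a5 sits at 468 to 535 CPM in the controls and 691 to 711 CPM after Circ-INSR siRNA, and Shmt2 at 137 to 141 and 172 to 184 CPM, while Cth and Slc1a4 overlap.

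Transporters of the plasma membrane rose in 4 of the 6 cases tested (66.7%, against 28.5% of all genes), and the other 2 were not called. LAT1, encoded by Slc7a5, exchanges glutamine for leucine and other large neutral amino acids and works as a pair with the heavy chain 4F2hc, encoded by Slc3a2. Slc7a5 was at 535, 505 and 468 CPM in the controls and at 711, 708 and 691 CPM after Circ-INSR siRNA. All treated libraries lay far above the controls, and Slc7a5 rose 1.400-fold (log2 0.49, SE 0.05, adjusted p = 5.61e-06), the largest rise of the 36 genes. Slc3a2 was at 319, 306 and 321 CPM and then 351, 348 and 344 CPM, a 1.103-fold rise (log2 0.14, SE 0.04, adjusted p = 0.00927). The pair thus rose together by different sizes. The Slc3a2 call was lost without control replicate 2 (log2 0.12, adjusted p = 0.0525) and with scaling to total counts (0.10, 0.0725), and with the trend of length and GC content removed its difference was 0.26.

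The arginine and lysine carrier CAT1, encoded by Slc7a1, was at 281, 279 and 241 CPM in the controls and at 328, 331 and 297 CPM after the siRNA. It rose 1.19-fold (log2 0.25, SE 0.06, adjusted p = 0.00496), and replicate 3 was the lowest library of each group. Slc38a2, the SNAT2 carrier of small neutral amino acids, rose 1.099-fold from 203 ± 6.93 to 223 ± 3.48 CPM (adjusted p = 0.017). That call was lost without treated replicate 2 (adjusted p = 0.064), without treated replicate 3 (0.065), with scaling to total counts (0.0944) and with the trend of length and GC content removed (log2 0.08, adjusted p = 0.058).

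Carriers of the SLC1 family were not called. Slc1a5, the glutamine carrier ASCT2, stood at 117 ± 3.71 and 113 ± 1.22 CPM, with a 95% interval of the log2 difference of -0.15 to 0.04. Slc1a4, the related carrier of serine and alanine, had overlapping groups at 31.9 ± 0.818 and 32.03 ± 1.802 CPM, with an interval of -0.11 to 0.13. For Slc7a11, the cystine importer, 0, 4 and 5 counts were found in the controls and 12, 7 and 4 after the siRNA, too few to test.

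In all, 16 genes were called higher (45.7%), 10 lower (28.6%) and 9 neither, against 28.5% of all genes each way. Over the 36 genes together, the share called lower was thus that of all genes. Per kilobase of exon, the supply genes were the more abundant set, with a median control level of 30.51 CPM per kilobase against 17.31 for the stress genes. Got1 led the controls at 137.7 CPM per kilobase, followed by Slc7a5 at 135.5. After Circ-INSR siRNA the order of these 2 was turned, with Slc7a5 at 189.7 and Got1 at 131.5 CPM per kilobase. The genes with the largest falls, Fgf21 and Chac1, were among the least abundant, at 3.14 and 2.004 CPM per kilobase in the controls.

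Genes of the same pathway outside the 36 were counted in 5 further lists, also chosen with earlier results of these data known. Each count is to be read beside the 28.5% of all genes called in each direction. Of 18 genes listed as subunits and regulators of eIF2, 9 rose (50%), 2 fell (11.1%) and 7 were not called, with a median log2 fold change of 0.13. Among the genes that rose is Eif2a (log2 0.15, adjusted p = 0.0108), which encodes eIF2A, a separate factor and no subunit of eIF2. The 3 with the smallest adjusted p were Eif2s3x, Impact and Dele1. Eif2s3x, the gamma subunit of eIF2, rose from 204 ± 4.91 to 268 ± 3.296 CPM (log2 0.39, adjusted p = 6.38e-06). Impact, an inhibitor of GCN2, fell from 31.1 ± 1.19 to 22.3 ± 0.411 CPM (log2 -0.48, adjusted p = 9.59e-06), while the mRNA of GCN2 itself, Eif2ak4, rose. Dele1, which relays mitochondrial stress to the heme-regulated kinase, rose by 0.39 (log2, adjusted p = 3.94e-05), as did the kinase gene Eif2ak1 by 0.19.

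Of 17 further ATF4 and CHOP targets that could be tested, 12 fell (70.6%), 3 rose (17.6%) and 2 were not called, with a median of -0.37.  Gdf15, a stress hormone, went from 83.7 ± 3.58 to 18.9 ± 1.58 CPM (log2 -2.15, SE 0.06, adjusted p = 1.08e-09). Atf3, a factor that ATF4 induces, went from 27.99 ± 1.08 to 11.1 ± 0.941 CPM (log2 -1.33, SE 0.07, adjusted p = 3.08e-08). Sesn2, whose protein senses leucine and holds back mTORC1, went from 90.7 ± 3.72 to 40.8 ± 2.89 CPM (log2 -1.15, SE 0.06, adjusted p = 2.22e-08). Gdf15 and Sesn2 are known p53 targets as well, so they are not markers of ATF4 alone. Whether the other genes of this list answer to ATF4 and CHOP alone was not tested.

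Further amino acid enzymes went both ways: of 23 tested, 8 rose (34.8%), 11 fell (47.8%) and 4 were not called, with a median of -0.07. Aldh4a1, which degrades proline, fell from 83.8 ± 4.36 to 40.7 ± 1.199 CPM (log2 -1.04, adjusted p = 1.87e-08), and Ass1, which starts arginine synthesis from citrulline, fell from 114 ± 4.49 to 60.3 ± 3.62 CPM (log2 -0.92, adjusted p = 6.99e-08). Gcsh, a subunit of the glycine cleavage system, rose from 84.7 ± 6.198 to 141 ± 1.89 CPM (log2 0.73, adjusted p = 4.5e-07).

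Of 16 further transporters tested, 7 rose (43.8%), 3 fell (18.8%) and 6 were not called, with a median of 0.15. Slc16a10, a carrier of aromatic amino acids, rose from 26.8 ± 0.9996 to 49.02 ± 1.45 CPM (log2 0.87, adjusted p = 5.93e-08), more than any of the transporters among the 36. Slc7a6, a partner of Slc3a2 that exchanges cationic for neutral amino acids, rose by 0.41 (adjusted p = 5.77e-06), and Slc7a2, a second cationic carrier, by 0.48 (adjusted p = 2.69e-05). Of the 20 genes through which mTORC1 senses amino acids, 4 rose (20%), 5 fell (25%) and 11 were not called, with a median of -0.02. Both shares are below the 28.5% of all genes. Rragd, a Rag GTPase that brings mTORC1 to the lysosome, rose from 69.9 ± 0.566 to 110.04 ± 3.94 CPM (log2 0.65, adjusted p = 2.01e-07). Nprl3, a subunit of the GATOR1 complex that switches those GTPases off, fell by 0.74 (log2, adjusted p = 4.92e-07). Castor1, the arginine sensor, fell by 0.67 (log2, adjusted p = 3.72e-05).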

How the data were processed

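Poly(A)-selected, directional RNA libraries of HL-1 cells were sequenced, 3 from cells given a control siRNA and 3 from cells given Circ-INSR siRNA. The authors deposited 1 file a library with the unnormalized count of each Ensembl gene. Per the submitters' processing notes the build was mm10, and the tools were STAR 2.5.0c, featureCounts 1.6.4 and StringTie 1.3.5 beside bcl2fastq, Trim Galore and the quality reporters FastQC 0.11.4 and MultiQC 1.7, without a stated role. Which annotation release, strand setting and rule for reads with several matches were used is not given in the sources used here, so counts of overlapping genes are uncertain, as are those of Phgdh, which has a pseudogene copy. A count of 2 was more frequent than a count of 1 in each file, and the tests were repeated with halved counts.

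Symbols, positions and exon lengths came from GENCODE M21 on the same build, in which 36308 of 38087 IDs (95.33%) were found. The 36 genes and the pathway and marker lists were chosen with earlier results of these data known. The test was run in edgeR 4.0.16 (R 4.3.3): filterByExpr (minimum count 10, minimum total 15), which kept 16666 genes, TMM scaling, the robust quasi-likelihood F-test with no term beside the group, and Benjamini-Hochberg adjustment over all genes tested at 0.05. Standard errors are the log2 fold change over the square root of F, and intervals are 95% from the same fit. Intervals, and the floor of 3 counts (0.0395 to 0.0496 CPM), cover the measured spread and counting error only. All 36 genes are named, and of each other pathway list the 3 genes with the smallest adjusted p, with Eif2ak2 and Eif2a in addition. The steps were also tested on simulated data. The alternatives were other scalings and filters, DESeq2 1.42.0, limma-voom 3.58.1, halved counts, removal of a trend with length and GC content, a replicate block, each library left out, and glmTreat at a log2 change of 0.3. Promoter windows are those of RefSeq, searched for TGATGNAA on both strands. Proteins were not used here.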

Additional observations from a re-analysis of the deposited data

How the results depend on the processing

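Each of the 35 genes tested was fitted under 16 alternatives, which do not include glmTreat. That test, given after them, kept far fewer of the rises. Of these 560 fits, 534 kept the call, 18 lost it, 7 gained one in the same direction and 1 was reversed. The reversal was Atf4, at a log2 change of 0.10 with the trend of length and GC content removed. The call was the same under all 16 alternatives for 12 of the 16 genes called higher, 9 of the 10 called lower and 5 of the 9 not called. Asking for a log2 change beyond 0.3 (glmTreat) left 1947 genes higher and 2382 lower of all genes. It left 1 stress gene higher and 8 lower, 1 supply gene higher, and 13 higher and 17 lower of the other pathway genes. Supply genes called lower numbered 0 in the report, 1 with upper-quartile scaling, 2 with total counts, 1 after a 1 CPM filter and 0 to 1 with each library left out. Leaving out each library gave 3 to 5 stress genes higher, 10 lower in each case, and 10 to 12 supply genes higher. Total counts gave 3 stress genes higher, 10 lower and 9 supply genes higher. With the trend of length and GC content removed there were 6 stress genes higher, 9 lower and 11 supply genes higher. Upper-quartile scaling gave 4466 higher and 4990 lower of all genes. The labels do not say whether libraries with the same replicate number belong together. Deviations of same-numbered libraries correlated only weakly, at 0.0242, 0.0739 and 0.0356. Yet 6 of 6 libraries correlated best with their own number, a hint from the data and not from the design. A replicate block gave 4968 genes higher and 4900 lower, with 4 and 10 stress genes and 12 and 0 supply genes. The depth limits Fgf21, Chac1, Stc2 and Cth most, which had the lowest levels of those tested, and Slc7a11 could not be tested.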
